A study of Canis lupus familiaris with 30 samples.

Results

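The comparison described here set dogs fed raw meat against dogs fed kibble at week 9, the end of the feeding period. It consists of 4 of the 30 two-colour arrays of the series, chosen by their titles, which pair the week 9 samples of the diets. On 2 of them, called meat 9/kibble 9, the meat sample carried the dye Cy3 and the kibble sample Cy5, and on the other 2, called kibble 9/meat 9, the dyes were exchanged. Every value is oriented as log2 of meat over kibble, so that a negative value is lower in the meat-fed dogs.

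The adult dogs ate only 1 diet each, a premium kibble that contains carbohydrate (8 dogs) or a raw red meat diet high in protein and fat (7 dogs). Peripheral blood mononuclear cells (PBMC) were isolated from blood by density centrifugation at weeks 0, 3, 6 and 9, and the series text states 6 biological replicates per group. The other 26 arrays compared the diets at week 0 (3 arrays), week 3 (3) and week 6 (4), or compared weeks within a diet. Each diet at week 9 was read in 8 channels, 4 of them on the direct diet arrays and 4 on arrays against week 0, so with 6 replicates some samples were read more than once. The labels do not tie arrays to single dogs, and p-values measure the spread between arrays, which may be partly technical.

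PBMC hold lymphocytes, monocytes and dendritic cells, with a few basophils, which sediment with them. Most neutrophils are removed by the density step, and platelets are carried over to a varying degree. A difference in a marker can therefore come from fewer cells of a type or from less RNA per cell, and these cannot be told apart in bulk RNA. Markers of the labelled cell type were measured: 2 of 2 T cell, 3 of 3 B and plasma cell, 7 of 7 monocyte and 8 of 8 cytotoxic T and natural killer (NK) cell markers on the array passed the filter on low signals.

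Depth, as the count of probes well above background, was 24296 to 26363 in Cy3 and 27091 to 31698 in Cy5 on the 4 arrays. Precision is limited by there being 4 of them. The 4 arrays lay together on 1 of the 8 slides, which held no other group, so on the diet arrays week and slide cannot be told apart. Their oriented ratios agreed weakly: over 25950 units (a gene or accession, represented by its brightest probe) the correlation between pairs of arrays ran from -0.27 to 0.21, as a description over units that share arrays and dyes. The lowest value was between meat 9/kibble 9 replicate 2 and kibble 9/meat 9 replicate 1. Some bright probes split by dye order and others, such as that of the ribosomal protein gene RPL37 (-0.32, -0.14, -0.12 and -0.11), did not. RPS14, another ribosomal protein gene chosen here after its values were seen, read -0.88 and -0.76 with meat in Cy3 and 0.78 and 0.83 with meat in Cy5, which left a fitted log2 difference of 0.04 ± 0.07 SE.

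Of the 25950 units, 151 were called at week 9, meaning a Benjamini-Hochberg adjusted p under 0.05 in limma (0.582%). Of these 66 were higher in the meat-fed dogs (0.254%) and 85 lower (0.328%), and 2721 units (10.5%) had an unadjusted p under 0.05. The lower side held the larger differences: 16 units were lower by more than 1 on the log2 scale, 0 were higher by as much, and the largest difference upward was 0.73. Of the 151 units, 132 had the fitted sign on 4 of 4 arrays and 19 on 3. These units were chosen by a fit that holds the same arrays, so their shared sign is partly set by that choice. Of all units with 4 values 12.5% had 1 sign on 4 of 4, the share that independent random signs would give. The call rested on all arrays together. With median centring in place of loess 10 units were called, 2 higher and 8 lower, and on the 4 week 9 diet arrays alone limma called 0, with 1462 at an unadjusted p under 0.05.

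Most called units carried no gene symbol: 71 were Ensembl transcripts, 49 were expressed sequence tags or their assemblies, 19 were RefSeq accessions without a symbol in the table used and 2 had a probe name only. The unit with the smallest p was the dog transcript ENSCAFT00000000941, which was 8.05-fold lower with meat (log2 -3.01 ± 0.24 SE, adjusted p = 2.5e-08 in limma). It read -3.62, -2.98, -2.45 and -2.48 on the 4 arrays, all far below 0. It was lower to a like degree at the start of feeding, by -2.52 ± 0.25 at week 0. The transcript ENSCAFT00000009377 was 2.28-fold lower, at -1.78, -0.98, -0.40 and -1.37 on the arrays. At week 0 it was at -1.29 ± 0.16. On the higher side, ENSCAFT00000018498 was 1.39-fold higher and the tag assembly TC48290 1.43-fold higher, each above 0 on 4 of 4 arrays. Their values at week 0 were 0.19 ± 0.07 and 0.30 ± 0.08.

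Named genes made up 1087 of the units, and 10 of them were called (0.92%), 3 higher and 7 lower, of which 8 are described. In the sentences that follow, the 4 array values come in the order meat 9/kibble 9 replicates 1 and 2, then kibble 9/meat 9 replicates 1 and 2. The fitted value with its standard error (SE) comes from limma over all 30 arrays.

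**Figure D1:**
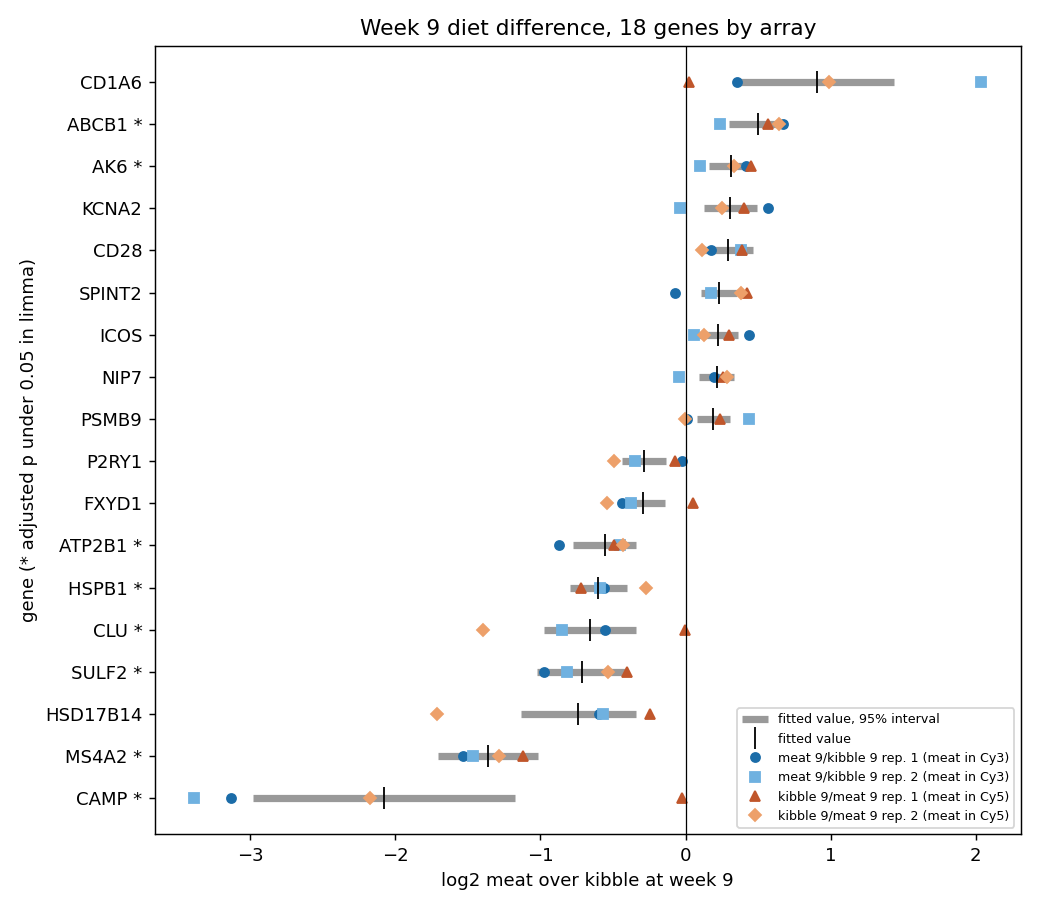
Log2 meat over kibble at week 9 (x axis) for 18 named genes (y axis), taken in each direction by their p-values; symbols are single arrays, ticks the limma values and grey bars their 95% intervals, with * for adjusted p under 0.05. MS4A2 lies between -1.53 and -1.12 on all 4 arrays, while CAMP runs from -3.38 to -0.02.

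The lower genes included surface and secreted proteins of minor blood cell populations. MS4A2, the beta chain of the high-affinity IgE receptor of basophils and mast cells, read -1.53, -1.46, -1.12 and -1.29. The 4 arrays lay close together and far from 0, in both dye orders. The 95% interval of the fitted value, -1.36 ± 0.17, ran from -1.71 to -1.02 (2.57-fold lower, adjusted p = 0.00014 in limma). The other chains of the same receptor gave other values in the fit of all arrays. FCER1A, the IgE-binding alpha chain, was at -0.04 ± 0.20 with arrays at -0.90, 0.13, 0.43 and 0.70. FCER1G, the signalling chain that many leukocytes share, was at -0.08. Without the 4 arrays, in a fit described below that is not dye balanced, FCER1A was at -0.86 ± 0.45, the same sign as MS4A2. The alpha chain is thus not shown to be unchanged. Among all 8 measured markers of basophils, mast cells and eosinophils MS4A2 was the 1 called, 4 were positive and 4 negative, and their median was -0.01 against -0.003 over all units. The mast cell protease CMA1 (0.30 ± 0.11, adjusted p = 0.31) and the eotaxin receptor CCR3 (0.60 ± 0.22, adjusted p = 0.28) did not pass, and CCR3 ran from -0.46 to 1.23 over the arrays.

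CAMP, the cathelicidin precursor stored in neutrophil granules, read -3.13, -3.38, -0.02 and -2.18. On 3 arrays it was strongly lower and on kibble 9/meat 9 replicate 1 it was near 0. The fitted value was -2.08 ± 0.44 (4.22-fold lower, adjusted p = 0.0235 in limma). The call was lost without any 1 of 3 week 9 diet arrays, with an adjusted p of 0.12 without meat 9/kibble 9 replicate 1, 0.082 without replicate 2 and 0.12 without kibble 9/meat 9 replicate 2. All 6 neutrophil markers were negative (median -0.50), and CAMP was the 1 called. The iron-binding granule protein LTF was at -0.59 ± 0.25 (adjusted p = 0.38) and the calcium-binding protein S100A8 at -0.51 ± 0.63 (adjusted p = 0.84). The list's median by array was -0.59, -1.70, 0.25 and -0.59, above 0 on kibble 9/meat 9 replicate 1 alone. The gelatinase MMP9 was the most scattered member, at -2.26, -1.73, 2.43 and 0.48, below 0 with meat in Cy3 and above 0 with meat in Cy5.

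CLU, clusterin, a chaperone-like protein that platelets store and release, read -0.55, -0.85, -0.00 and -1.40. Again kibble 9/meat 9 replicate 1 showed no difference, and the fitted value was -0.66 ± 0.15 (1.58-fold lower, adjusted p = 0.0433 in limma). All 5 of its probes were negative, from -0.66 to -0.24. This call was weak: it was lost in 23 of 32 alternative fits, among them that without kibble 9/meat 9 replicate 2 (-0.41, adjusted p = 0.45). All 9 platelet and megakaryocyte markers were negative (median -0.53), with CLU the 1 called.

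Among the week 9 arrays the platelet markers were lowest on 1. Their median was -0.26, -0.50, 0.11 and -1.75, with kibble 9/meat 9 replicate 2 far below the rest. The fitted median of the list was also negative at the other weeks, with -0.48 (week 0), -0.78 (week 3) and -1.21 (week 6), each week on other diet arrays. In the fit, weeks 0 and 9 also share the arrays that join them, as do weeks 3 and 6. Members of each pair are thus not independent estimates. At week 6 GP1BA (-1.83) and PTGS1 (-1.66) were among 1617 of 25950 units called. GP1BA (-1.23) was also among the 1580 called at week 3. GP1BA, the von Willebrand factor receptor subunit, read -0.35, -0.68, -0.16 and -2.40 (fitted -0.86 ± 0.28, adjusted p = 0.19). The fibrinogen receptor chains followed that array too: ITGB3 was at -1.75 on it against -0.62 to 0.11 elsewhere, and ITGA2B, chosen after its values were seen, at -2.06 against -0.45 to 0.53. The adhesion receptor SELP was likewise at -1.75 there and between -0.28 and 0.13 on the other arrays. PTGS1, the cyclooxygenase of platelets, was low on 2 arrays, at -1.98 on meat 9/kibble 9 replicate 2 and -1.76 on kibble 9/meat 9 replicate 2, and at -0.05 and -0.31 on the others (fitted -1.02 ± 0.28, adjusted p = 0.11). Several genes outside the marker list were lowest on the same array: HSD17B14, a steroid dehydrogenase (-1.71 against -0.60 to -0.24), AK1, an adenylate kinase (-1.82 against -0.52 to -0.27), and the metalloprotease inhibitor TIMP1 (-1.45 against -0.78 to -0.03). That array also had the most probes above background in Cy5, 31698 against at most 27811, and the part of this in the results was not tested.

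**Figure D2:**
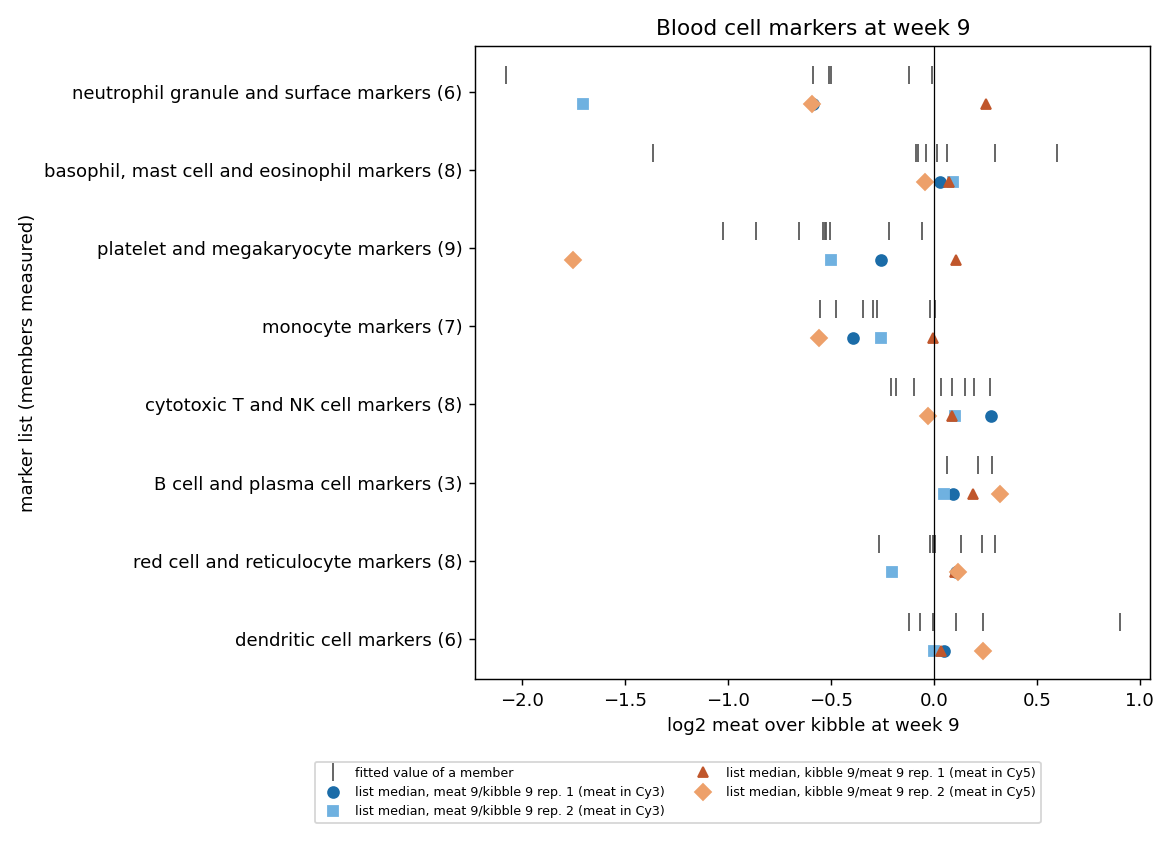
Markers of 8 blood cell types at week 9: grey ticks are the limma values of single members and coloured symbols the median of each list on each of the 4 arrays, on the x axis in log2 meat over kibble. The platelet median is -1.75 on kibble 9/meat 9 replicate 2, and the neutrophil median is above 0 on kibble 9/meat 9 replicate 1.

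HSPB1, a small heat shock protein that binds unfolded proteins and actin, read -0.56, -0.59, -0.72 and -0.27. It was lower on each array, with a fitted value of -0.60 ± 0.10 (1.52-fold lower, adjusted p = 0.00265 in limma). HSPB1 was the 1 called member of 6 heat shock proteins and cochaperones, whose median was -0.04. The inducible chaperone HSP70 was at -0.15 ± 0.11 (adjusted p = 0.71) and its cochaperone DNAJA1 at 0.13 ± 0.05 (adjusted p = 0.33).

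SULF2, an enzyme that removes sulfate from heparan sulfate outside the cell, read -0.97, -0.81, -0.40 and -0.53. All 4 arrays were below 0, and the fitted value was -0.72 ± 0.15 (1.64-fold lower, adjusted p = 0.0207 in limma). ATP2B1, a calcium pump of the plasma membrane, read -0.87, -0.45, -0.50 and -0.43, with a fitted value of -0.56 ± 0.11 (1.47-fold lower, adjusted p = 0.0107 in limma). All 6 of its probes were negative, from -0.56 to -0.18.

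The named genes that were higher differed by less. ABCB1, the drug efflux pump P-glycoprotein, read 0.67, 0.24, 0.57 and 0.64. All arrays were above 0, and the fitted value was 0.50 ± 0.10 (1.41-fold higher, adjusted p = 0.015 in limma). Its second, dimmer probe was at 0.16. ABCB1 was the 1 called of 11 efflux pumps and xenobiotic enzymes, whose median was 0.02.

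AK6, an adenylate kinase of the nucleus, read 0.42, 0.10, 0.45 and 0.33 (fitted 0.31 ± 0.07, 1.24-fold higher, adjusted p = 0.0417 in limma). It was above 0 on each array, but did not pass in 22 of 32 alternative fits.

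Calls of the other genes also depended on single arrays. Without meat 9/kibble 9 replicate 1 limma called 53 units and without kibble 9/meat 9 replicate 2 it called 42, and of the 8 named genes described above 2 and 3 kept their call. The calls of ABCB1 and SULF2 were lost without either of these arrays, that of ABCB1 also without kibble 9/meat 9 replicate 1 (adjusted p = 0.055), and that of ATP2B1 without the first (adjusted p = 0.077). MS4A2 and HSPB1 kept their calls without any single array of weeks 0 and 9. Of the 8, median centring left MS4A2 as the 1 call that was kept, with HSPB1 at -0.41 (adjusted p = 0.56) and ATP2B1 at -0.40 (adjusted p = 0.62).

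The loop design also reaches the week 9 difference without the direct arrays. A fit of the 26 arrays other than the week 9 diet arrays, added after the data were seen, reaches it through week 0. The 8 genes were chosen from the fit of all 30 arrays, which holds these 26, so their shared sign is partly set by that choice. On the arrays joining weeks 0 and 9 the kibble samples of week 9 were all in Cy5 and the meat samples all in Cy3, so this estimate is not dye balanced and rests on the fitted dye term. MS4A2 was at -1.54 ± 0.43 SE there and at -1.35 ± 0.09 on the 4 arrays alone, and HSPB1 at -0.94 ± 0.23 and -0.54 ± 0.09. CAMP was at -2.33 ± 0.93 and -2.18 ± 0.54, and SULF2 at -0.99 ± 0.38 and -0.68 ± 0.11. The SE on the 4 arrays is from a fit of those arrays alone, with 4 values per gene, which called 0 units. The smaller differences of ABCB1 (0.33 ± 0.25), AK6 (0.25 ± 0.18) and CLU (-0.43 ± 0.33) lay within 2 SE of 0 in the 26 arrays. The 26 arrays alone called 2 units in limma and 0 of the 8 genes. With only the 11 other arrays of weeks 0 and 9, AK6 had the opposite sign (-0.10 ± 0.21) and CAMP was at -1.11 ± 1.68.

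**Figure D3:**
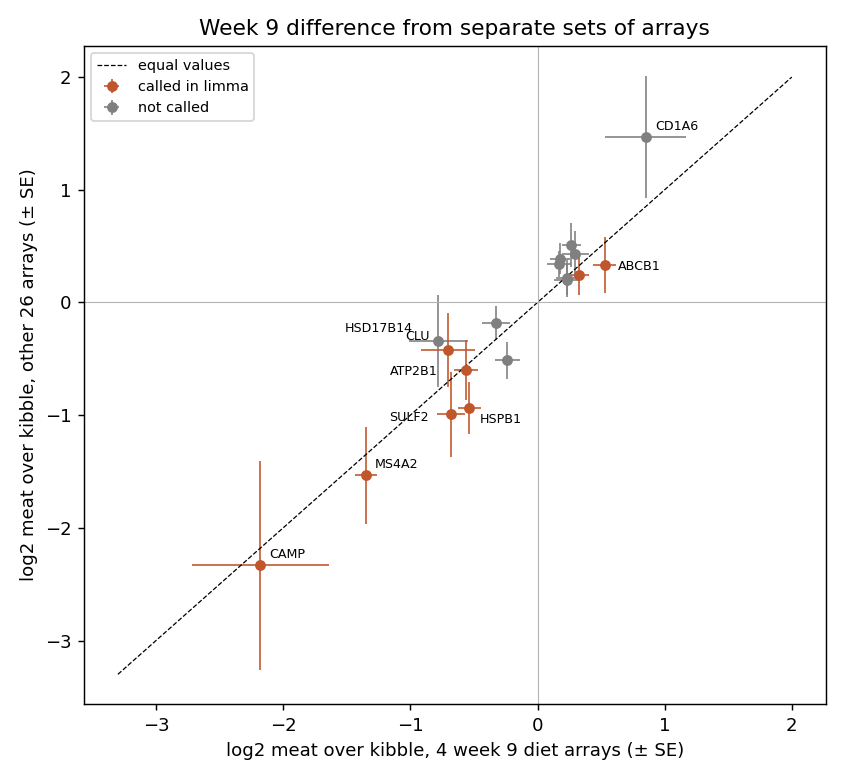
The week 9 difference of the same 18 genes from the 4 week 9 diet arrays (x axis) and from the other 26 arrays (y axis), both log2 meat over kibble with bars of 1 SE; the dashed line marks equal values. MS4A2 is at -1.35 and -1.54, and the bars of the 26 arrays are wider than those of the 4 arrays for all 18 genes.

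The diet difference at week 0 was compared with that at week 9, since the animals had not yet been fed the diets then. In limma 0 of 25950 units (0%) were called for a change in diet difference between the weeks (2034 at an unadjusted p under 0.05, 7.84%, smallest adjusted p 0.17). With median centring 0 were called too, with 5948 at an unadjusted p under 0.05 in limma. A unit that was not called is not shown to be equal at the weeks. The estimates of weeks 0 and 9 draw on the same time arrays. At week 0, 0.312% of all units were called. Of the units called at week 9, 8 of the 66 higher and 25 of the 85 lower were also called at week 0. The sign at week 0 was the same for 65 of the 66 and 84 of the 85. The share over all units was not computed. The shared time arrays tie the estimates of the weeks, so part of this agreement in sign may be built in. MS4A2 was at -1.17, HSPB1 at -0.63 and SULF2 at -0.84 at week 0, each called there too. CAMP was at -1.86 (adjusted p = 0.099) and ATP2B1 at -0.33 (adjusted p = 0.30). ABCB1 was at 0.35 (adjusted p = 0.20) and CLU at -0.46 (adjusted p = 0.32). For ABCB1 and CLU week 9 differed from week 0 by 0.15 ± 0.12 and -0.20 ± 0.19 (unadjusted p = 0.22 and 0.31 in limma). AK6 was at 0.07 at week 0, a difference from week 9 of 0.24 ± 0.09 (unadjusted p = 0.012), which did not pass the adjustment. NIP7, a ribosome assembly factor, was at -0.06 at week 0 and 0.21 ± 0.06 at week 9 (adjusted p = 0.096 at week 9), with the smallest p of this contrast among the genes described here (unadjusted p = 0.00058).

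**Figure D4:**
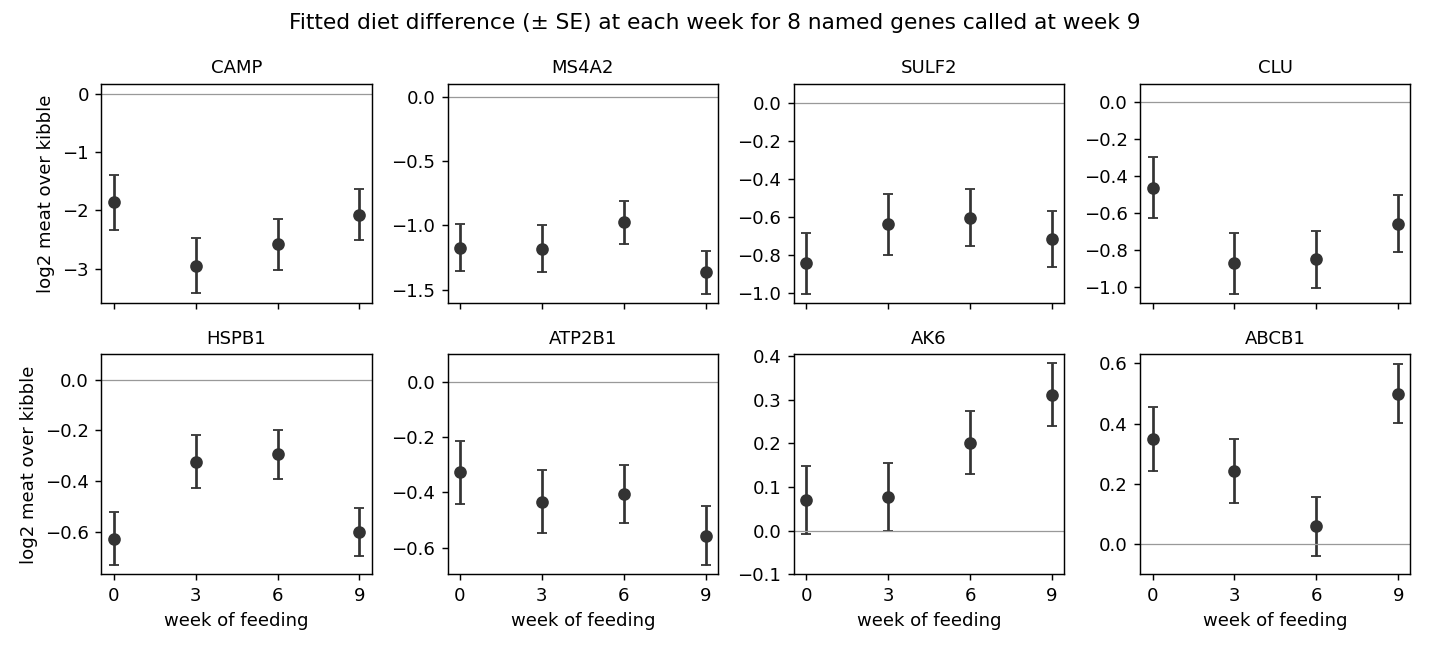
Fitted diet difference (log2 meat over kibble, y axis, points with bars of 1 SE) by week of feeding (x axis) for 8 named genes called at week 9; the y axes differ between panels. MS4A2 lies between -1.36 and -0.98 at all weeks, while ABCB1 is at 0.35, 0.24, 0.06 and 0.50 at weeks 0, 3, 6 and 9.

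Genes of T cell costimulation lay on the higher side without passing. CD28, the costimulatory receptor of naive T cells, read 0.18, 0.39, 0.39 and 0.11 (fitted 0.29 ± 0.08, adjusted p = 0.12), and its relative ICOS 0.44, 0.06, 0.30 and 0.13 (0.23 ± 0.06, adjusted p = 0.12). Both were above 0 on 4 of 4 arrays. Of 12 genes of T cell activation and costimulation 9 were positive, 2 had an unadjusted p under 0.05, 0 were called and the median was 0.13. The potassium channel KCNA2 was at 0.31 ± 0.09 (adjusted p = 0.12) and the protease inhibitor SPINT2 at 0.23 ± 0.06 (adjusted p = 0.084), each above 0 on 3 arrays.

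Antigen-presenting molecules outside the classical class II group varied by array. CD1A6, a CD1 molecule that presents lipids, read 0.36, 2.04, 0.03 and 0.99 (fitted 0.90 ± 0.26, adjusted p = 0.12), and the nonclassical class I gene DLA-79 0.40, 1.83, -0.19 and 0.24 (0.69 ± 0.23, adjusted p = 0.22). Each was highest on meat 9/kibble 9 replicate 2. In the fit of the 26 arrays other than the week 9 diet arrays, which is not dye balanced, CD1A6 was at 1.47 ± 0.54 and DLA-79 at 1.69 ± 0.39. CD1A8 was more even, at 0.18, 0.41, 0.17 and 0.30 (0.24 ± 0.08, adjusted p = 0.25). The immunoproteasome subunits PSMB9 (0.19 ± 0.06) and PSMB8 (0.14 ± 0.07) did not pass. Class I presentation had 6 of 8 genes positive (median 0.15) and class II presentation 4 of 9 (median -0.01), with 0 called in either. The median of class II genes was -0.24 at week 0, and with median centring it was 0.18 at week 9.

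Monocyte markers were mostly lower but not called. Of 7, 6 were negative, with a median of -0.30. CYBB, the core of the NADPH oxidase of phagocytes, read -0.95, 0.01, -0.58 and -1.01 (fitted -0.55 ± 0.15, adjusted p = 0.10). The haemoglobin receptor CD163 was below 0 on each array, at -0.61, -0.25, -0.37 and -0.54 (-0.47 ± 0.22, adjusted p = 0.44), and so was the endotoxin receptor TLR4 (-0.30 ± 0.15, adjusted p = 0.51). Genes of iron and haem handling, which share CD163, were negative in 7 of 7, with a median of -0.11 and 0 called.

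Inflammatory NF-kB targets lay above 0 in 12 of 15 genes (median 0.21), 5 with an unadjusted p under 0.05 and 0 called. The list's median by array was 0.06, 0.12, 0.43 and -0.09, and some members stood far above the rest on 1 array. CXCL8, the neutrophil-attracting chemokine, chosen after its values were seen, read -0.33, 0.11, 3.06 and -0.90, and IL1B, an inflammatory cytokine, -0.41, -0.22, 1.88 and -0.63. The chemokine CCL3 was at 1.99 on the same array, kibble 9/meat 9 replicate 1, and between -0.33 and 0.25 on the others. Without that array the fitted values of CXCL8 and IL1B were -0.07 and -0.08. It is also the array on which the neutrophil markers had a median above 0 and MMP9 reached 2.43. The adhesion molecule ICAM1, in contrast, was at 0.38, 0.26, 0.17 and -0.06 (0.21 ± 0.08, adjusted p = 0.29), and the interferon-induced chemokine CXCL10 at 0.49, 0.47, 0.53 and -0.21 (0.26 ± 0.11, adjusted p = 0.38).

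The diet difference at week 9 was also set against the mean of those at weeks 3 and 6, with 0 of 25950 units (0%) called in limma (1751 at an unadjusted p under 0.05, 6.75%, smallest adjusted p 0.36). The markers of cytotoxic T and NK cells were described further. Their median diet difference was 0.02 at week 0 and 0.06 at week 9, against -0.46 (week 3) and -0.51 (week 6). In the fit, weeks 0 and 9 were joined by arrays of their own, and weeks 3 and 6 by other arrays. Members of each pair are thus not independent estimates, and this grouping of weeks cannot be told apart from that of the arrays. Between weeks 9 and 0 the difference of 0 of 8 had an unadjusted p under 0.05. For 8 of 8 the week 9 value was above the mean of weeks 3 and 6, and 7 of 8 had an unadjusted p under 0.05. PRF1, the pore-forming protein of cytotoxic granules, differed by 0.76 ± 0.19 (unadjusted p = 0.00053, adjusted p = 0.64), going from -0.51 and -0.61 to 0.20. The chemokine CCL5 differed by 1.1 ± 0.31 and KLRD1, a chain of NK cell receptors, by 0.82 ± 0.24. The death ligand FASLG (0.46 ± 0.17), the chemokine receptor CX3CR1 (0.47 ± 0.20), the T cell coreceptor chain CD8A (0.52 ± 0.23) and the NK receptor NCR1 complete the 7. NCR1 was dim, well above background in 2 of 8 meat and 4 of 8 kibble channels of week 9, so its difference is not given. CCL4, an inflammatory chemokine that cytotoxic cells release, had the smallest p of the genes described here (0.79 ± 0.19, unadjusted p = 0.00028, adjusted p = 0.64). These genes were singled out after their values were seen, and the weeks lie on separate slides.

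**Figure D5:**
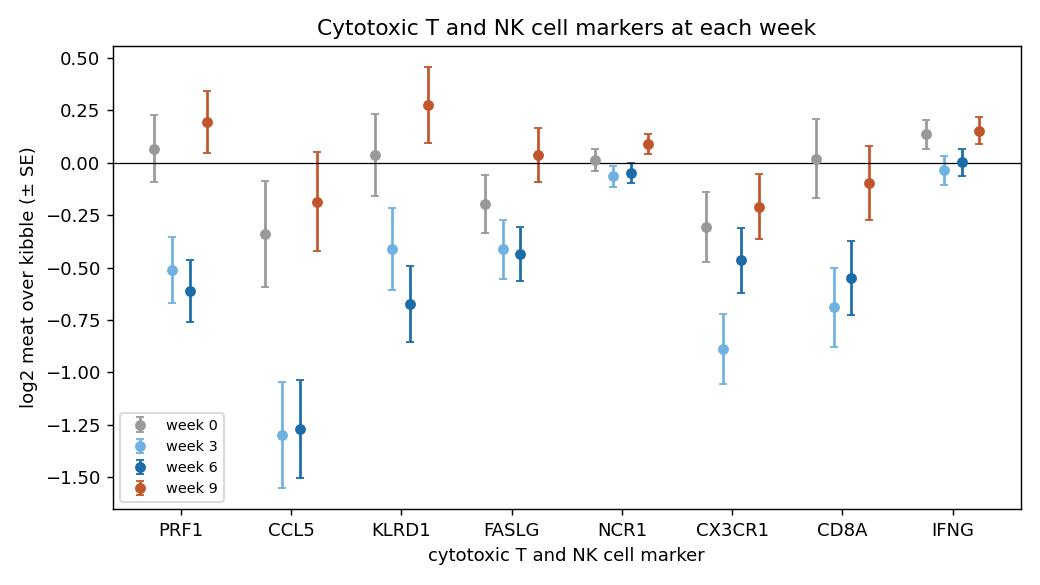
Fitted diet difference (log2 meat over kibble, y axis, points with bars of 1 SE) of the 8 cytotoxic T and NK cell markers (x axis) at weeks 0, 3, 6 and 9; NCR1 and IFNG were near background. PRF1 is at -0.51 and -0.61 at weeks 3 and 6 and at 0.20 at week 9.

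At week 9 itself 0 of these 8 markers were called. PRF1 read 0.70, 0.12, 0.29 and -0.28, KLRD1 0.60, 0.26, 0.16 and 0.09, and CCL5 0.33, 0.54, -0.04 and -1.56. The low value of CCL5 was on kibble 9/meat 9 replicate 2. The probe of IFNG, the cytokine interferon gamma, was well above background in 4 of 8 meat and 3 of 8 kibble channels of week 9, and its difference is not given.

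Lists of energy and amino acid metabolism and of ribosomal proteins had 0 called members at week 9. Over all units 0.582% were called and 12565 of 25950 were positive, so lists of this size would hold few calls in any case. PPARG, a nuclear receptor for fatty acids, was at -0.33 ± 0.11 (adjusted p = 0.19, below 0 on 3 of 4 arrays) and CPT1A, which brings fatty acids into mitochondria, at -0.32 ± 0.11 (adjusted p = 0.27, also 3 of 4). Of 7 genes of fatty acid oxidation 2 were positive, with a median of -0.10. In glycolysis and glucose uptake 2 of 5 were positive (median -0.07), with the glucose transporter SLC2A1 at 0.23 ± 0.12 and the lactate dehydrogenase chain LDHB at 0.28 ± 0.12. All 6 genes of oxidative phosphorylation were positive, by a median of 0.10, with the succinate dehydrogenase subunit SDHB at 0.12 ± 0.04 (adjusted p = 0.18). Of 6 genes of amino acid catabolism and the urea cycle 2 were positive (median -0.06), and of 19 ribosomal protein genes 8 were positive (median -0.01).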

How the data were processed

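Scanner files of 30 Agilent arrays were read. Per the file headers, Agilent Feature Extraction 10.10.1.1 made the deposited values, which are the median intensity of both dyes at each spot, the local background and other marks (0 or 1) for faulty, saturated or dim spots. The deposited matrix gives 1 log2 ratio per probe, made with limma per the submitters' processing notes; the 4 arrays correlated with it at 0.981 to 0.989. Symbols came from matching accessions to RefSeq's gene list of the assembly UU_Cfam_GSD_1.0: 2347 of 2472 spots with such an accession matched.

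Of 45220 spots 43803 were not controls. Over all arrays 979 faulty spots were left out and 0 were saturated. Background was corrected with normexp (offset 50) on the median signal (the plan named mean signal), then loess within each array. A probe was kept if it stood well above background in 7 or more of the 60 channels (31691 passed), and the brightest probe of each gene or accession gave 25950 units. limma 3.58.1 in R 4.3.3 (with data.table, 1.17.8) fitted all 30 arrays with a term per group and a gene-specific dye term (called in 5615 units), leaving 23 residual degrees of freedom. Tests were two-sided, adjusted by Benjamini-Hochberg over all units, threshold 0.05. An exact sign-flip permutation test over 4 arrays cannot go below p = 0.125 and was not used. Lists (34, of which 31 had at least 3 measured members) were described by counts and medians, with no test; 17 listed genes on the array did not pass the filter.

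Named genes were all named calls at week 9, filled to 10 per direction by p, and up to 4 members of each list by p; 2 unnamed calls per direction were added. Some named genes are not reported here. The comparison, the genes and the lists were chosen with earlier results of these data known. On simulated data for this contrast over 25950 units, 83 of 100 changes of 0.5 log2 and 97 of 100 of 1 were recovered, with 10 false calls. The simulated noise was normal and independent between units and arrays. Effects shared across an array or slide, and samples read more than once, were thus not covered by these counts. No genome of the files' build was used, so no coordinates or sequences are given. Alternatives changed background, normalisation, filter, probe rule, dye term, blocks, moderation, weights and the arrays used.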

Additional observations from a re-analysis of the deposited data

Results flagged for a closer look

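In 103 sets of 4 values (genes described, list medians and probe counts on the week 9 diet arrays) the highest or lowest array stood apart from the others by Dixon's test in 9, and chance flags about 1 in 20. ATP2B1 was at -0.87 on meat 9/kibble 9 replicate 1 against -0.50 to -0.43. IL1B was at 1.88 on kibble 9/meat 9 replicate 1 against -0.63 to -0.22. On kibble 9/meat 9 replicate 2, CXCL10 was at -0.21 against 0.47 to 0.53, DNAJA1 at 0.25 against 0.08 to 0.10 and AK1 at -1.82 against -0.52 to -0.27. The same array had the highest median of glycolysis genes (0.14 against -0.13 to -0.10) and 31698 probes above background in Cy5 against 27091 to 27811. On meat 9/kibble 9 replicate 2 the median of red cell markers was -0.20 against 0.10 to 0.12, and that of heat shock proteins -0.14 against -0.03 to -0.01.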

How the results depend on the processing

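Against 151 units called at week 9, limma called 10 with median centring, 63 with scaling between arrays, 94 with a dye term per scan session, 69 with the slide as a block, 51 with the arrays of weeks 0 and 9 alone, 0 with the week 9 diet arrays alone and 2 with the other 26 arrays. The replicate number as a block gave 98; same-numbered arrays of the 2 dye orders deviated with r = 0.11 over 2 pairs, so the numbers are not shown to pair samples. Leaving out each array of weeks 0 and 9 in turn gave 42 to 195 (96 higher and 60 lower without meat 9/kibble 9 replicate 2). Arrays of weeks 3 and 6 were not left out for this contrast. The other 9 fits gave 132 to 218. The contrast of week 9 with week 0 called 0 units. On leaving out each array of weeks 0 and 9 it called 0 to 2, with 2 without meat 9/kibble 9 replicate 2. The contrast with weeks 3 and 6 called 0 in each fit made. The 8 called genes described kept their sign in each of these fits, and MS4A2 lost its call in 2 of 32 and HSPB1 in 3 of 32. Among these fits signs changed in uncalled genes, and the cause was not tested; in the estimate from 11 arrays AK6 was at -0.10. FCER1A became 0.088 with median centring, 0.0012 with scaling, 0.017 with the dye term per scan session, 0.089 with the slide block, 0.074 with weeks 0 and 9 alone and 0.089 with the 4 arrays alone. With median centring CCL5 was 0.0072, CD8A 0.069, RPL37 0.041, RPL7A 0.064 and HSP70 0.023, and with no dye term FASLG was -0.021. In the other 26 arrays TLR4 was 0.021, CCL5 0.13, CD8A 0.44, CX3CR1 0.57 and GYPC -0.082. FCER1A kept its negative sign in those arrays, at -0.86 ± 0.45 SE. On leaving out each array of weeks 0 and 9 FCER1A ran from -0.22 to 0.13, CD8A from -0.24 to 0.058 and CCL5 from -0.33 to 0.22. In the same fits CXCL8 ran from -0.065 to 1.21, IL1B from -0.083 to 0.73 and FASLG from -0.087 to 0.104. The median of cytotoxic markers was 0.25 in the other 26 arrays. Low signal over background limits dim genes.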
